A study of Homo sapiens with 6 samples.

Results

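Expression of 10 genes of serine, one-carbon, proline and asparagine synthesis was examined in Kelly cells, an established human neuroblastoma line with amplified MYCN. The genes were taken by symbol from the count tables, and all 10 of 10 were found among the 19923 genes listed and among the 15311 genes tested. They were PHGDH, PSAT1 and PSPH (serine), SHMT1, SHMT2, MTHFD2 and MTHFD1L (one-carbon units), ALDH18A1 and PYCR1 (proline) and ASNS (asparagine). RNA-seq of poly(A) RNA was done 72 hours after lipid transfection of a control siRNA (siControl, 3 libraries) or an siRNA against METTL3 (siMETTL3, 3 libraries). METTL3 is the catalytic subunit of the enzyme complex that writes N6-methyladenosine on mRNA. Both groups carried the same genotype, given as WT, and were grown in the same serum-supplemented RPMI1640, a medium that itself supplies serine, glycine, proline and asparagine. The knockdown was transient, the cells were 1 line, and how many siRNA sequences the treatment held is not given in the sources used here. The labels do not say that the libraries came from separate cultures, so the p-values measure the spread between these libraries, which may be technical.

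Cells make serine from the glycolytic intermediate 3-phosphoglycerate in a short chain of steps run by PHGDH, PSAT1 and PSPH. The SHMT enzymes then move a carbon from serine onto folate, which yields glycine, and the MTHFD enzymes pass that carbon on as formate for purine and thymidylate synthesis. Proline is built from glutamate by ALDH18A1 and PYCR1, and asparagine is made from aspartate and glutamine by ASNS. Many of these genes are textbook targets of ATF4, the transcription factor of the integrated stress response and of amino acid shortage, and serine synthesis is known to be high in MYCN-amplified neuroblastoma.

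Promoter windows are shown for 4 of the genes, whose responses span the range seen among the 10. ASNS had the largest fall of the 10, PHGDH had the highest level, ALDH18A1 had a small fall, and MTHFD1L was not past the threshold. The windows were read from RefSeq (GRCh38.p14), which matched 7 of the 10 symbols, and run from 250 bases before the start site to 50 bases after it, on the gene's own strand. Capitals mark TGATGNAA, the C/EBP-ATF composite element that ATF4 dimers are known to bind, and CACGTG, the E-box that MYC family proteins are known to bind. The windows lie at chr7:97872359-97872658 (ASNS, minus strand), chr6:150866197-150866496 (MTHFD1L, plus strand), chr10:95656662-95656961 (ALDH18A1, minus strand) and chr1:119711684-119711983 (PHGDH, plus strand).
ASNS: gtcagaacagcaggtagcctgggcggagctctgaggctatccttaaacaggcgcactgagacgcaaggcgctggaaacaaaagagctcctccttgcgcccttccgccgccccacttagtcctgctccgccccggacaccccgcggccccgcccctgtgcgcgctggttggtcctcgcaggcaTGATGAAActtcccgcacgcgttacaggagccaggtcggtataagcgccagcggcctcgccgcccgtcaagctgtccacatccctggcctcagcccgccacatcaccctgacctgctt
MTHFD1L: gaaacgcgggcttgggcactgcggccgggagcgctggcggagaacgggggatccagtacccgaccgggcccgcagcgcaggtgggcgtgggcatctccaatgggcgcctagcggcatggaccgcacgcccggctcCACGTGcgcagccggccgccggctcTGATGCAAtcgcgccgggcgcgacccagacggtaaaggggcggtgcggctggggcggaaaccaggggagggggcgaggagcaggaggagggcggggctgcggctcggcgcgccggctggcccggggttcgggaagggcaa
ALDH18A1: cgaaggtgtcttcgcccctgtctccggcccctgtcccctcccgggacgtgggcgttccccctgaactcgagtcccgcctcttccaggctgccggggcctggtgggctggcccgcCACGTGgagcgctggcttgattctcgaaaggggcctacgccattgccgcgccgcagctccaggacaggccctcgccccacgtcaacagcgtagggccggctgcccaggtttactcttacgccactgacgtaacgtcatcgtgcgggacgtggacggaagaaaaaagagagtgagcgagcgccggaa
PHGDH: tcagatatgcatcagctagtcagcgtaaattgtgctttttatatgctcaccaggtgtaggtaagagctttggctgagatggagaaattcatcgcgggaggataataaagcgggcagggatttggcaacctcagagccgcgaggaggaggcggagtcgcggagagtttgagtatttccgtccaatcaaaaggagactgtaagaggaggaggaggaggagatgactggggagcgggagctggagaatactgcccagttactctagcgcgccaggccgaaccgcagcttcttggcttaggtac

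The composite element stood in the ASNS window as TGATGAAA, with its first base at -68 from the start site. In the MTHFD1L window it stood as TGATGCAA at -90, and an E-box stood at -115, without overlap between them. RefSeq lists 2 windows for ASNS and 4 for MTHFD1L, and those printed were chosen after the motifs were searched. The other ASNS window and 1 of the other MTHFD1L windows held neither motif. In the remaining MTHFD1L windows the same composite element and E-box lay at 25 and -1 and at -129 and -154 from the start sites. The ALDH18A1 window held an E-box at -136. Both strands were searched. Neither motif was found in the PHGDH window, nor in the windows of PSAT1, MTHFD2 and SHMT1. Every matched gene with a motif is thus among those printed, and the matched genes left out held neither motif. Of all 35116 RefSeq windows of this length, 3.62% held the composite element and 7.26% held the E-box. By gene, 2 of the 7 matched genes had a window with the composite element and 2 of the 7 one with the E-box, beside 3.19% and 12.1% of the 11813 tested genes with a window. A match describes letters only and is not evidence of binding.

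The libraries held 15430000 to 21565013 counts, with siControl replicate 3 the shallowest and the farthest from its group. All 8 noradrenergic neuroblastoma markers, PHOX2A, HAND2, GATA3, TH, DBH, ISL1 and MYCN among them, were expressed, at a summed 4964 to 5484 CPM (counts scaled to the TMM-adjusted library size) in siControl and 7417 to 7843 CPM in siMETTL3. Most of that gap was MYCN, at 3021 ± 134 and 4638 ± 169 CPM (SD, n = 3 libraries), and the markers did not all move one way: 5 were called higher, TH by 2.86-fold, and ISL1 was called lower (log2 fold change -1.18, edgeR FDR 6.06e-08). The 7 markers of other cell types summed to 7.71 to 10.8 CPM in siControl and to 11.9 to 12.1 CPM in siMETTL3, with PTPRC at or under 0.400 CPM and CD3E at 0 in 5 of the 6 libraries. EPCAM (5.53 ± 0.716 and 6.05 ± 0.881 CPM) and COL1A1 (2.96 ± 1.27 and 5.26 ± 0.471 CPM) made up most of that sum, and COL1A1 was called higher (log2 fold change 0.86, edgeR FDR 0.0200). Their part in the results was not tested. METTL3 received 1154, 1055 and 847 reads under siControl and 679, 692 and 705 under siMETTL3, and relative to library size the targeted mRNA was lower in every siMETTL3 library (61.0% of control, log2 fold change -0.71, SE 0.0696, edgeR FDR 4.68e-06).

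All 10 genes had a log2 fold change below 0, and 7 of 10 passed the threshold, an FDR under 0.05 over all tested genes (edgeR quasi-likelihood test with Benjamini-Hochberg adjustment). Over all tested genes, 19.2% were called lower and 18.6% were called higher. None of the 10 was called higher, and the same held in each of the other fits run. The median log2 fold change of the 10 was -0.40, beside -0.0021 over all tested genes. The values of 8 of the 10 lay lower in every siMETTL3 library than in every siControl library, as did those of 25.1% of all tested genes. Summed over the 10 genes, expression was 1676, 1705 and 1668 CPM in the siControl libraries and 1201, 1204 and 1193 CPM in the siMETTL3 libraries. In a bulk culture, fewer cells that express a gene and less RNA per cell cannot be told apart. The genes were chosen with ASNS and PHGDH already known to be lower, so their shared direction is not independent evidence.

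**Figure D1:**
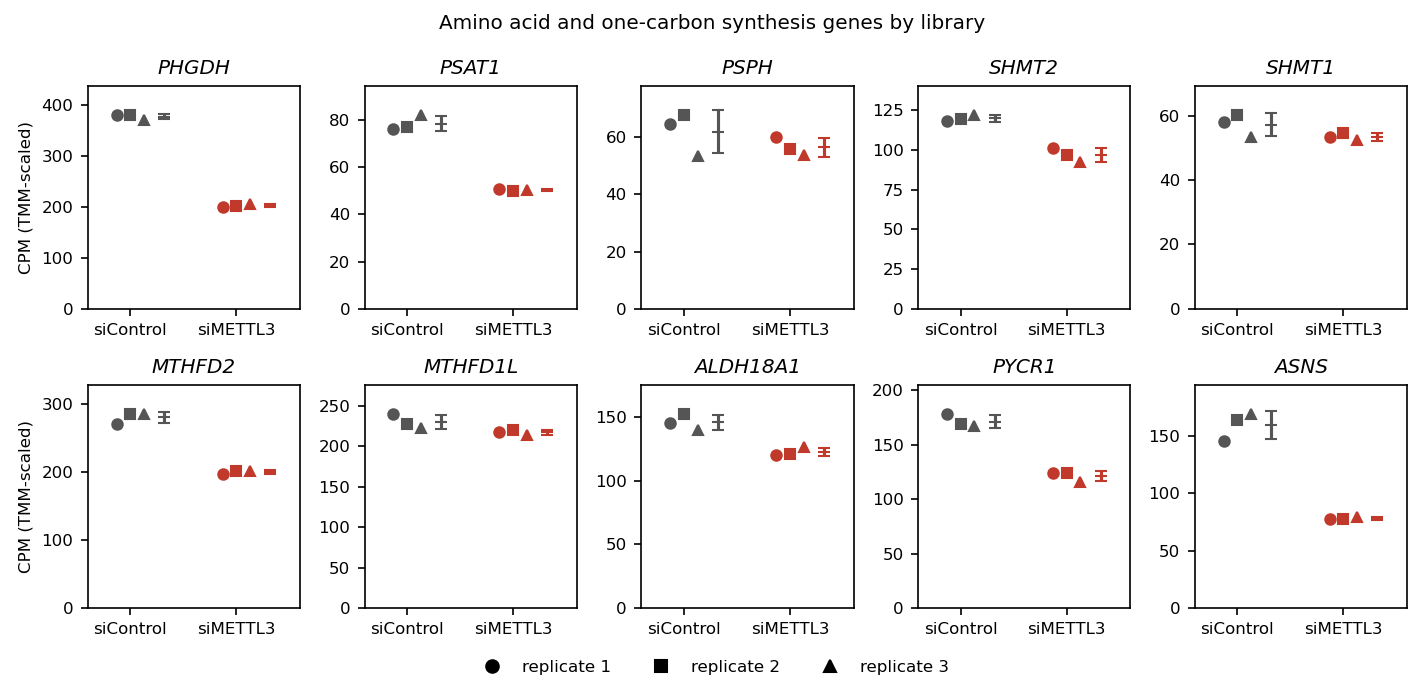
Expression of each of the 10 genes in CPM (TMM-scaled, vertical axes starting at 0) in the 3 siControl and 3 siMETTL3 libraries. Symbols are single libraries and the bars are the mean ± SD; the groups lie apart for every gene but PSPH and SHMT1, and ASNS and PHGDH have the largest proportional gaps.

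The serine branch fell at its first steps. PHGDH (chromosome 1, 119648411 to 119744226, plus strand, GRCh38), the dehydrogenase that opens the pathway, stood at 380.2, 381 and 372 CPM in siControl and at 200.2, 203 and 206 CPM in siMETTL3. The groups lay far apart, and each varied little. Its mean fell from 378 ± 4.91 to 203 ± 2.87 CPM (SD, n = 3 libraries), which left 53.7% of the control level (log2 fold change -0.90, SE 0.0523, edgeR FDR 4.27e-08). The PHGDH promoter window printed above begins at 119711684, well inside the counted span. Reads upstream of that start site were thus counted for PHGDH too, and their share was not measured.

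PSAT1 (chromosome 9, 78297125 to 78330093, plus strand), the aminotransferase of the next step, stood at 76.1, 77.3 and 82.2 CPM in siControl and at 50.9, 49.9 and 50.5 CPM in siMETTL3. It fell in every siMETTL3 library, to 64.3% of control (log2 fold change -0.64, SE 0.0614, edgeR FDR 4.10e-06). PSPH (chromosome 7, 56011051 to 56051604, minus strand), the phosphatase that releases serine, stood at 64.6, 67.8 and 53.4 CPM in siControl and at 60.2, 55.8 and 53.7 CPM in siMETTL3. Its groups overlapped, because siControl replicate 3 lay below all 3 siMETTL3 libraries. The log2 fold change of PSPH was -0.14 with a 95% interval from -0.32 to 0.05 (edgeR FDR 0.234). Without siControl replicate 3 it was -0.23 (edgeR FDR 0.00792, the lowest of its alternatives, which reached 0.646), and with an offset for intron length and all libraries kept it was -0.21 (edgeR FDR 0.0425). PSPH and SHMT1 have pseudogene copies elsewhere in the genome, which makes their counts less certain.

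Of the one-carbon genes, SHMT2 and MTHFD2 fell, and SHMT1 and MTHFD1L did not pass the threshold. SHMT2 (chromosome 12, 57229573 to 57234935, plus strand), the mitochondrial serine hydroxymethyltransferase, stood at 118, 119.7 and 122 CPM in siControl and at 101, 97.0 and 92.2 CPM in siMETTL3. It fell to 80.8% of control with no overlap (log2 fold change -0.31, SE 0.0576, edgeR FDR 9.13e-04). SHMT1 (chromosome 17, 18327860 to 18363563, minus strand), its cytosolic isoenzyme, stood at 58.2, 60.3 and 53.4 CPM in siControl and at 53.4, 54.6 and 52.4 CPM in siMETTL3. These ranges overlapped, and the log2 fold change of -0.10 had a 95% interval from -0.24 to 0.04 (edgeR FDR 0.257). With an offset for transcript GC content and length, SHMT1 passed the threshold at -0.19 (edgeR FDR 0.0157, against 0.0157 to 0.585 over its alternatives). With the intron length offset it did so at -0.17 (edgeR FDR 0.0499). The GC and length offset moved the median of all tested genes to -0.0354, and the intron length offset to -0.0515.

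MTHFD2 (chromosome 2, 74198610 to 74217565, plus strand), the mitochondrial methylenetetrahydrofolate dehydrogenase and cyclohydrolase that is abundant in many tumours, stood at 271, 285 and 285 CPM in siControl and at 197, 201 and 202 CPM in siMETTL3. All 3 siMETTL3 libraries lay below all 3 siControl libraries, at 71.4% of control (log2 fold change -0.49, SE 0.0531, edgeR FDR 1.23e-05). Its span shares 31.5% of its length with AC006030.1 and 6.98% with SLC4A5, both on the opposite strand, and the counting used no strand option. Reads in the shared part count for both genes. AC006030.1 itself fell (log2 fold change -0.28, edgeR FDR 0.00119) and SLC4A5 rose (0.24, edgeR FDR 0.0134), and how many reads were shared was not measured.

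MTHFD1L (chromosome 6, 150865549 to 151101887, plus strand), the mitochondrial enzyme that releases formate, stood at 239.7, 228 and 223 CPM in siControl and at 218, 220.1 and 214 CPM in siMETTL3. The groups did not overlap, but the gap was small beside the spread, and MTHFD1L did not pass (log2 fold change -0.09, 95% interval -0.20 to 0.03, edgeR FDR 0.238). Introns make up 97.9% of the MTHFD1L span, the highest share of the 10, and the counts cover introns. With the intron length offset, MTHFD1L passed at -0.19 (edgeR FDR 0.0138), and with the GC and length offset at -0.18 (edgeR FDR 0.00337, against 0.00337 to 0.466 over its alternatives). Both offsets shift all tested genes downwards, with medians of -0.0515 and -0.0354, so part of these changes is shared with the whole table.

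Both proline genes fell. ALDH18A1 (chromosome 10, 95605941 to 95656711, minus strand), the synthase that turns glutamate into the proline precursor, stood at 145, 152 and 140.0 CPM in siControl and at 119.8, 121 and 126 CPM in siMETTL3. The groups lay apart, with 84.1% of control left (log2 fold change -0.25, SE 0.0567, edgeR FDR 0.00343). PYCR1 (chromosome 17, 81932384 to 81942412, minus strand), the mitochondrial reductase of the last step, stood at 178, 169 and 167 CPM in siControl and at 124, 124 and 116 CPM in siMETTL3. It fell to 70.8% of control (log2 fold change -0.50, SE 0.0566, edgeR FDR 1.71e-05). MYADML2, which overlaps 27.6% of the PYCR1 span, held 8 to 45 counts per library, and PYCR1 held 2388 to 3844, so at most 45 reads of a library could be shared.

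ASNS (chromosome 7, 97851677 to 97872542, minus strand), asparagine synthetase, had the largest fall of the 10. It stood at 146, 164 and 169 CPM in siControl and at 77.2, 77.2 and 79.7 CPM in siMETTL3. Its lowest control library, replicate 1, was still far above every siMETTL3 library. The mean level went from 159.5 ± 12.3 to 78.0 ± 1.41 CPM (SD, n = 3 libraries), with 48.9% of control left (log2 fold change -1.03, SE 0.0648, edgeR FDR 8.56e-08). A fall of at least 2-fold past the threshold was seen in 93 of the 15311 tested genes, and ASNS was the only one of the 10 among them.

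**Figure D2:**
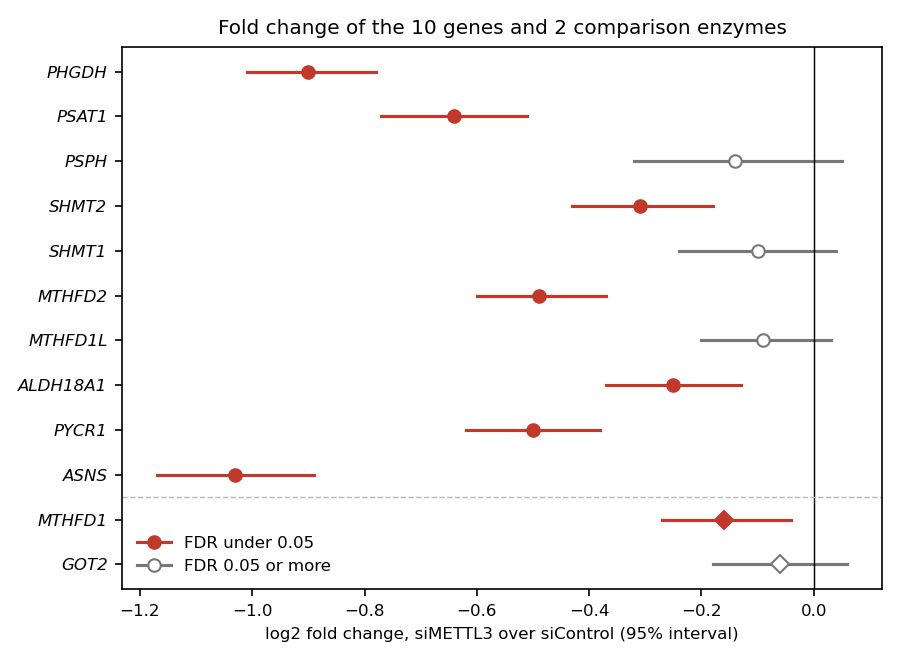
Log2 fold change of siMETTL3 over siControl for the 10 genes (circles, above the dashed line) and for the enzymes MTHFD1 and GOT2 (diamonds), with 95% intervals from the edgeR fit. Filled symbols passed an FDR of 0.05; ASNS at -1.03 and PHGDH at -0.90 lie lowest, and the intervals of PSPH, SHMT1, MTHFD1L and GOT2 cross 0.

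Levels were compared between genes per kilobase of the canonical transcript. In siControl, PHGDH led with 202 ± 2.63 CPM per kilobase, followed by PYCR1 with 75.6 ± 2.60. ASNS (66.9 ± 5.18), MTHFD1L (66.7 ± 2.48) and MTHFD2 (63.7 ± 1.84) came next, and each neighbouring pair of these had overlapping libraries. SHMT2, ALDH18A1, PSAT1, PSPH and SHMT1 followed, at 55.6, 43.5, 35.6, 31.4 and 22.7 CPM per kilobase. In siMETTL3, PHGDH was still first with 109 ± 1.54 CPM per kilobase and SHMT1 still last with 21.2 ± 0.440. ASNS went from rank 3 to rank 7, at 32.7 ± 0.593 CPM per kilobase, and MTHFD1L from rank 4 to rank 2, at 62.9 ± 0.931. The counts include intron reads, so these levels overstate genes with much unspliced RNA.

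Unequal change was then examined as ratios of counts within a library, which need no scaling. The 6 ratios are not per length, so only their change between groups is read. With 3 libraries against 3, the exact two-sided permutation test cannot go below 0.10. The log2 ratio of ASNS to GOT2, the mitochondrial aminotransferase that makes aspartate, was 0.52, 0.68 and 0.70 in siControl and -0.30, -0.35 and -0.34 in siMETTL3. GOT2 itself did not pass (log2 fold change -0.06, 95% interval -0.18 to 0.06, edgeR FDR 0.398). The ASNS to GOT2 ratio differed by -0.96 with no overlap.

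The log2 ratio of MTHFD2 to MTHFD1, the cytosolic folate enzyme, was 0.57, 0.60 and 0.61 in siControl and 0.23, 0.24 and 0.33 in siMETTL3, a difference of -0.33. That of SHMT2 to SHMT1 differed by -0.21, from 0.99 to 1.19 in siControl against 0.82 to 0.92 in siMETTL3. In both of these, the member named first was lower relative to its partner in every siMETTL3 library.

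Within the serine branch, PSAT1 relative to PHGDH went the other way, from -2.32 to -2.18 in siControl against -2.03 to -1.98 in siMETTL3, PHGDH having the larger fall. ASNS to GOT2, MTHFD2 to MTHFD1, SHMT2 to SHMT1 and PSAT1 to PHGDH each gave an exact permutation p of 0.10 (adjusted 0.120 over the 6 ratios), the smallest the design allows. The ratio of MTHFD1L to MTHFD1 overlapped between groups (difference 0.07, exact permutation p = 0.30, adjusted 0.30). MTHFD1 shares 19% of its span with ZBTB25, so its counts are uncertain.

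**Figure D3:**
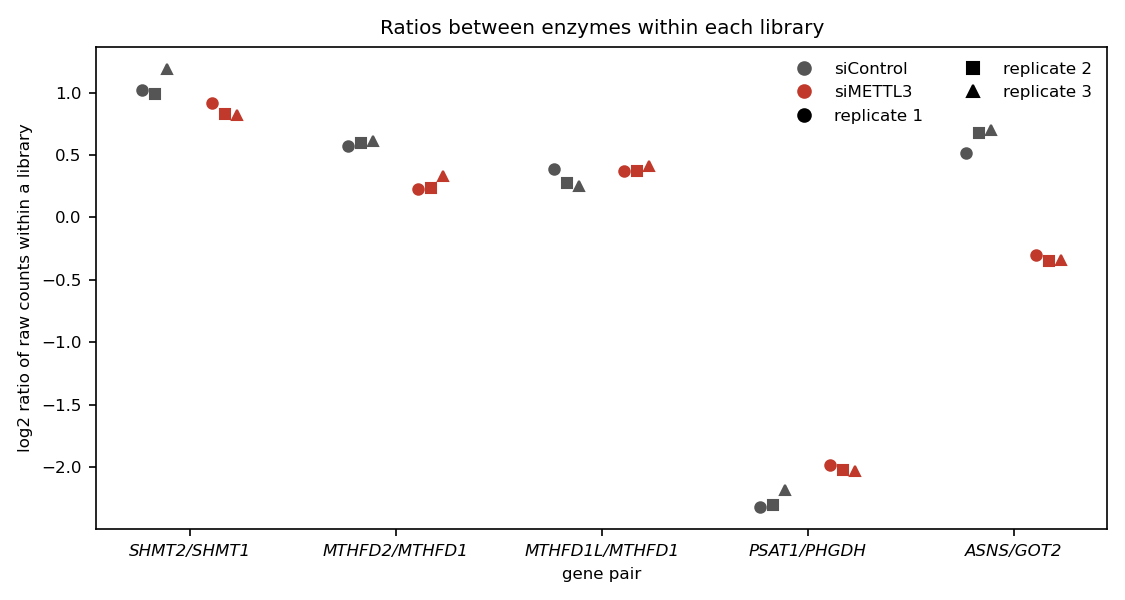
Log2 ratio of raw counts between pairs of enzymes within each library, 3 siControl (grey) and 3 siMETTL3 (red) libraries per pair, with replicates by symbol. ASNS/GOT2 differs most, by -0.96, PSAT1/PHGDH is higher in siMETTL3, and MTHFD1L/MTHFD1 overlaps.

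Among 17 tested genes of the folate cycle outside the 10, 8 were called lower and 2 higher, with a median log2 fold change of -0.16, beside the 19.2% lower and 18.6% higher of all tested genes. The 3 lower genes with the smallest FDR were GGH, the lysosomal hydrolase that trims folate tails (-0.78, edgeR FDR 3.34e-05), GART, which uses formyl-folate in purine synthesis (-0.39, edgeR FDR 7.71e-05), and ALDH1L2, the mitochondrial formyltetrahydrofolate dehydrogenase (-0.51, edgeR FDR 9.46e-05). ALDH1L2 shares 61.9% of its span with C12orf45, which was lower too (-0.39, edgeR FDR 2.80e-04), so its counts are uncertain. MTHFD1 was also lower (-0.16, edgeR FDR 0.0310). It missed the threshold when siControl replicate 2 (FDR 0.108) or siMETTL3 replicate 1 (0.0886), 2 (0.0621) or 3 (0.135) was left out, and with upper-quartile (0.0501) or total-count scaling (0.0581).

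FTCD, a folate enzyme of histidine breakdown, rose from a low 0.350 to 0.742 CPM in siControl to 1.17 to 1.79 CPM in siMETTL3 (log2 fold change 1.46, edgeR FDR 0.0104). It missed the threshold without siControl replicate 2 (FDR 0.0554) or siMETTL3 replicate 2 (FDR 0.0668). SLC19A1, the plasma membrane folate carrier, rose (0.29, edgeR FDR 0.0123), but missed the threshold when siControl replicate 2 (FDR 0.0502) or siMETTL3 replicate 1 (0.0540) or 2 (0.0711) was left out. Its log2 fold change was 0.19 with the intron length offset (FDR 0.0646) and 0.09 with the GC and length offset (FDR 0.200). COL18A1, which overlaps 25.3% of its span, rose as well, from 49.4 ± 6.47 to 140.4 ± 13.2 CPM (edgeR FDR 2.71e-07), and how many reads were shared was not measured.

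In the list of glycine, methionine and transsulfuration genes, 9 of 16 tested were called lower and 1 higher, with a median of -0.26 (19.2% and 18.6% over all tested genes). GCAT, a mitochondrial acetyltransferase of glycine metabolism, fell to 47.1% of control, with 28.0 ± 1.32 CPM in siControl and 13.2 ± 0.760 CPM in siMETTL3 (-1.09 on the log2 scale, edgeR FDR 1.53e-06), beside -1.03 for ASNS. MAT2B and MAT2A, the regulatory and catalytic subunits of the S-adenosylmethionine synthetase that supplies the methyl donor of METTL3, fell by 0.52 and 0.38 on the log2 scale (edgeR FDR 2.17e-04 and 3.02e-04). MTR, methionine synthase, rose (0.24, edgeR FDR 0.00264), but it did not pass with the intron length offset (0.12, FDR 0.0682).

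Of 11 tested genes of proline, glutamate and ornithine metabolism outside the 10, 3 were called lower and 1 higher (median -0.15), beside 19.2% and 18.6% of all tested genes. GLUL, glutamine synthetase, had a log2 fold change of -0.21 (edgeR FDR 0.00693). It missed the threshold without siMETTL3 replicate 1 (FDR 0.0579), and was -0.03 with an offset for intron length (FDR 0.684).

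ALDH4A1, which runs the proline pathway backwards to glutamate, was higher (0.33, edgeR FDR 0.0175). It missed the threshold without siControl replicate 2 (FDR 0.0747) or without siMETTL3 replicate 1 (0.0582), 2 (0.0719) or 3 (0.0501), and was 0.16 with the GC and length offset (FDR 0.119). PRODH, the proline dehydrogenase, was too low to be tested.

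Among 11 tested genes of aspartate and asparagine metabolism outside the 10, 3 were called lower and 0 higher (median -0.13), beside the same shares of all tested genes. ADSL, which uses aspartate in purine synthesis, fell (-0.33, edgeR FDR 3.66e-04), but 99.9% of its span overlaps AL022238.4 and 45.2% overlaps SGSM3, so its counts are uncertain. AGA, a lysosomal amidase that frees aspartate from glycoproteins (-0.44, edgeR FDR 0.0128), missed the threshold without siMETTL3 replicate 1 (FDR 0.0629). ADSS2, adenylosuccinate synthase (-0.23, edgeR FDR 0.0129), missed it without siMETTL3 replicate 1 (0.0546) or 2 (0.0683), and was -0.12 with the GC and length offset (FDR 0.0523).

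**Figure D4:**
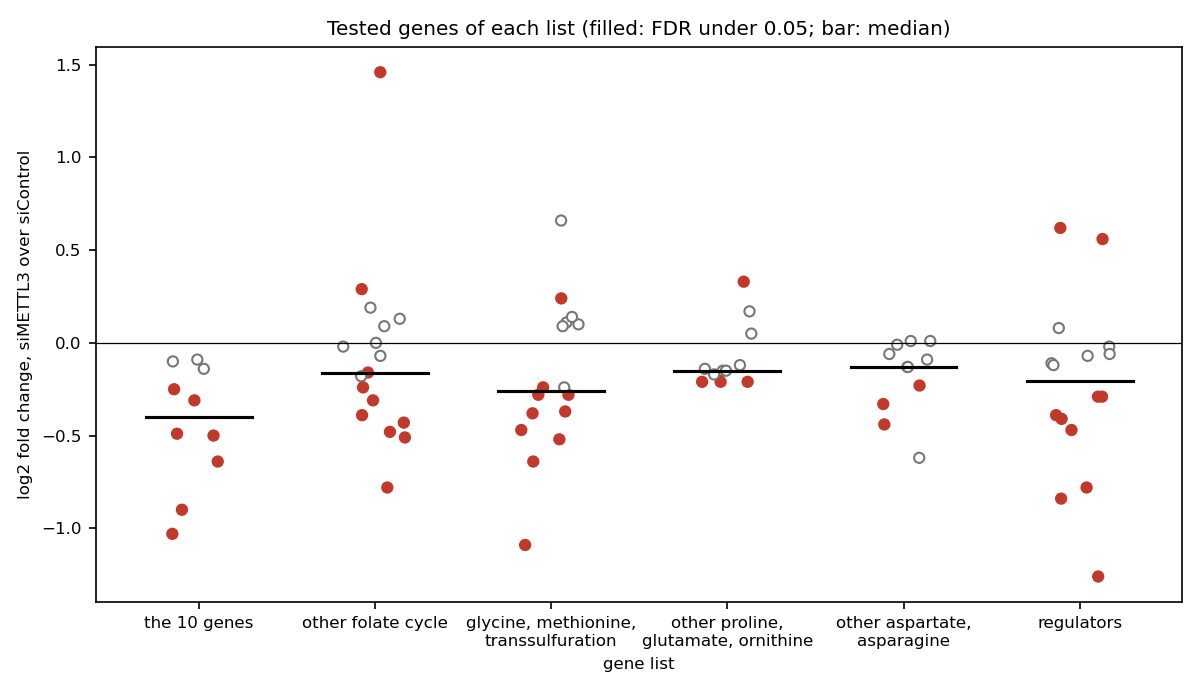
Log2 fold change of siMETTL3 over siControl for each tested gene of the 10 and of 5 lists of related genes, with the list median as a bar and filled points for an FDR under 0.05. The 10 genes lie wholly below 0, with a median of -0.40, and the medians of the other lists lie between -0.26 and -0.13.

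Of 16 tested regulators that are known to act on these genes or on the integrated stress response, 8 were called lower and 2 higher (median -0.21), beside 19.2% and 18.6% of all tested genes. ATF4 stood at 264, 271 and 269 CPM in siControl and at 149, 146 and 156 CPM in siMETTL3, lower in all 3 libraries (log2 fold change -0.84, edgeR FDR 1.17e-07). The size of this fall lay between those of PHGDH and PSAT1, but it concerns mRNA only, and ATF4 protein was not measured. ATF3, a stress-induced factor of the same family, fell further (-1.26, edgeR FDR 4.19e-07), and EHMT2, an H3K9 methyltransferase, fell by 0.41 on the log2 scale (edgeR FDR 1.82e-04).

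MYCN and KDM4C, an H3K9 demethylase, were the 2 called higher, with log2 fold changes of 0.62 and 0.56 (edgeR FDR 5.17e-06 and 9.33e-06). MYC was too low to be tested, at no more than 0.292 CPM. Whether any of these regulators acts on the 10 genes was not tested.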

How the data were processed

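Poly(A) RNA-seq libraries of Kelly cells, 3 siControl and 3 siMETTL3, were grouped by their titles. The deposited values are raw read counts per gene. Reads were counted with featureCounts v1.5.3, per the file headers, over whole gene spans of a protein-coding GENCODE release 33 annotation, introns included. Reads over several genes counted for each, and no strand option was set. Per the submitters' processing notes, Trimmomatic 0.36 and HISAT2 2.1.0 were used, with build GRCh38. Totals ran from 15430000 to 21565013 counts, which limits precision most for genes of few counts. No pair of libraries of the same group matched within sampling noise (chi-square per degree of freedom 3.05 to 16.1).

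Genes were filtered with filterByExpr (15311 of 19923 kept), scaled by TMM and tested with edgeR 4.0.16 in R 4.3.3 (robust quasi-likelihood fit, all 6 libraries, no covariate), with Benjamini-Hochberg adjustment over all tested genes and a threshold of 0.05. The SE is the absolute log2 fold change over the square root of F. Transcript lengths came from GENCODE release 44 canonical transcripts, whose spans overlapped all 18999 spans compared. The fit was tested on simulated counts. With gene-wise dispersions the share of false calls exceeded the nominal one, more so in the block fit, and a limit set for it was missed. The limit was then applied only to simulations with trended dispersions, which met it in every fit tested. It was thus relaxed after it was missed, so call counts, those of the block fit above all, may hold more false calls than the threshold states.

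The 10 genes and the lists were chosen with earlier results of these data known. Named were METTL3, the 10 genes, the ratio partners, MTHFD1 and GOT2 among them, and, of each list, up to 3 genes per direction with the smallest FDR past the threshold; a few of these genes and a ratio are not reported here. Alternatives were other scalings, other filters, DESeq2 1.42.0, limma-voom 3.58.1, no robust option, the replicate block, genes without overlaps (METTL3 and the 10 genes kept regardless), offsets for intron length and for GC content and transcript length (features for 95.3% of tested genes), and each library left out.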

Additional observations from a re-analysis of the deposited data

How the results depend on the processing

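The fit on genes without overlaps kept METTL3 and the 10 genes whatever their overlaps, and METTL3, SHMT1, SHMT2, MTHFD2 and PYCR1 do overlap others, so it does not test theirs. METTL3 passed as lower under all 19 alternatives, with a log2 fold change of -0.74 to -0.69 when each library was left out. The 7 lower genes of the 10 were past it under all 19 as well, and none of the 10 passed in the other direction. The number lower was 7 to 8 with a library left out (PSPH joined without siControl replicate 3), 9 with the GC and length offset and 10 with the intron length offset. Both offsets also changed the split of all tested genes, which was 19.2% lower and 18.6% higher in the main fit. It was 25.0% and 17.5% with the GC and length offset, and 24.6% and 14.8% with the intron length offset. Over all genes, the lower calls numbered 2119 to 3216 and the higher calls 2091 to 3178 with a library left out. In the fit on genes without overlaps they numbered 1901 and 1857, where fewer genes (9522) were tested. The log2 ratios given above kept their sign, between -1.02 and -0.93 for ASNS/GOT2, -0.36 and -0.31 for MTHFD2/MTHFD1, -0.25 and -0.15 for SHMT2/SHMT1, 0.23 and 0.30 for PSAT1/PHGDH, and 0.05 and 0.12 for MTHFD1L/MTHFD1. Whether shared replicate numbers mean paired libraries is not given in the labels and was not settled. Deviations of same-numbered libraries correlated weakly, at 0.0401 to 0.0671, though this was the highest value for each library. With the replicate block, METTL3 was at -0.71, 7 of the 10 genes were lower, and 6166 genes were called against 5786. Depth was low for FTCD, with 6 to 39 counts per library.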

Other observations

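Formyl-folate and aspartate, products of the enzymes described above, are used to build nucleotides, and 15 purine and pyrimidine synthesis genes were listed after the values of the 10 genes had been seen. Of these, 7 were called lower and 0 higher (edgeR FDR under 0.05), beside 19.2% and 18.6% of all tested genes, with a median log2 fold change of -0.16. IMPDH2, the rate-limiting enzyme of guanine nucleotide synthesis, fell from 149 ± 3.93 to 94.5 ± 0.505 CPM (SD, n = 3 libraries; log2 fold change -0.65, edgeR FDR 1.09e-06). Its isoenzyme IMPDH1 stood at 112 ± 6.71 and 115 ± 6.60 CPM, with overlapping libraries. PAICS, a purine enzyme with a pair of activities, fell by 0.36 on the log2 scale (edgeR FDR 1.96e-04). UMPS, which completes uridine monophosphate, fell by 0.21 (edgeR FDR 0.00878), but missed the threshold without siControl replicate 2 (FDR 0.0568).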
